A study of Mus musculus with 8 samples.

Results

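The endothelium of the mouse kidney at E13.5 was followed here through 10 genes: the VEGF receptors Kdr and Flt1, the angiopoietin receptor Tek and its relative Tie1, the adhesion and junction genes Pecam1, Cdh5 and Cldn5, and the surface genes Emcn, Plvap and Robo4. The members were taken by name, through the RefSeq accession that each array probe carries, with no threshold on their values, although earlier results of these data were known when they were chosen. All 10 had a probe, 12 probes in all, and all 10 were among the 31183 genes tested. Total RNA of whole kidneys was compared between embryos labelled wild type and embryos labelled mutant (UB HDAC1,2-/-), in which the histone deacetylases HDAC1 and HDAC2 are deleted from the ureteric bud, the epithelial outgrowth that forms the collecting ducts. Both groups were E13.5 kidneys of a mixed CD1 and C57BL/6 background, and the driver of the deletion is not given in the sources used here. Each of 4 biological replicates paired 1 RNA labelled mutant with 1 RNA labelled wild type on 2 arrays with the dyes exchanged, on 8 arrays in all. The labels do not say how many kidneys an RNA was made from.

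Endothelial cells line blood vessels, and in the embryonic kidney they grow among the branching bud and the condensing mesenchyme before they enter the first glomeruli. VEGF-A, made by epithelial and mesenchymal cells, signals through Kdr, while Flt1 binds the same ligand with high affinity and limits its action. Angiopoietin-1 activates Tek and steadies vessels, angiopoietin-2 acts on Tek according to context, and Tie1 has no established soluble ligand of its own and modulates Tek. Endothelial cells are not part of the bud epithelium, where the labels place the deletion. In RNA of whole kidneys, fewer endothelial cells and less RNA per endothelial cell cannot be told apart.

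The start-site windows of both receptor pairs are shown because the ratios of these 4 genes spanned the whole range of the set, from Kdr at the low end to Tek at the high end. Each window covers 250 bases before and 50 bases after the annotated start, from RefSeq on GRCm38.p6, printed 5′ to 3′ on the strand of the gene. Kdr lies at chr5:75978406-75978705 on the minus strand, Flt1 at chr5:147725962-147726261 on the minus strand, Tek at chr4:94739039-94739338 on the plus strand and Tie1 at chr4:118489800-118490099 on the minus strand. Capitals mark AGGAAG on either strand, a core of the kind that ETS factors bind, a family active in endothelium.
Kdr: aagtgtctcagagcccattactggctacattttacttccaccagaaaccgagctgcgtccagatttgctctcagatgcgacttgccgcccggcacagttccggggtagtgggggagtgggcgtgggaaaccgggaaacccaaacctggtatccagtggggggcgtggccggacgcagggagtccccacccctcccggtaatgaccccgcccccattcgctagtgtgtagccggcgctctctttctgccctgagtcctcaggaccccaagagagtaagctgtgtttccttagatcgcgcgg
Flt1: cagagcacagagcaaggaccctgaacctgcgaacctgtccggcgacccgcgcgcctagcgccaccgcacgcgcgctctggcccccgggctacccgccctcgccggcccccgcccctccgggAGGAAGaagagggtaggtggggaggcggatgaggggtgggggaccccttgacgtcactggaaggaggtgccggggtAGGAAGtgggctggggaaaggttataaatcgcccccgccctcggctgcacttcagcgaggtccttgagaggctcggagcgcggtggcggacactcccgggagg
Tek: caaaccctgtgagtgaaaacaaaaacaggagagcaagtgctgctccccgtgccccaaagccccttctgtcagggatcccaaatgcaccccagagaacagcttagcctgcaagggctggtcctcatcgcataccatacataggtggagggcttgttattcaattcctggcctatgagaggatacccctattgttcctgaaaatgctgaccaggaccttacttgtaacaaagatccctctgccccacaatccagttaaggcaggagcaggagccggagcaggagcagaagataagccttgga
Tie1: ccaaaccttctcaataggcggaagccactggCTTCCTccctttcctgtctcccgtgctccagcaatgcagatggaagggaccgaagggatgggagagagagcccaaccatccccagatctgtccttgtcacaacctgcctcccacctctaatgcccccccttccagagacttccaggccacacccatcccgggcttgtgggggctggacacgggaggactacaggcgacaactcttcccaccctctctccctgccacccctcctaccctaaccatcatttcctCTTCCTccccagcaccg
Flt1 and Tie1 each held 2 matches, as did the window of Emcn (not printed), and the windows of Kdr and Tek held none. Of the 7 members with a window in the RefSeq table, 4 held a match, and 35.4% of all 32851 windows of that length did. In 8.62% of all windows there were 2 or more. These are exact matches of the letters AGGAAG. Other forms of the core were not looked for, and no binding was measured.

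Signs follow the dye labels throughout, and the labels alone do not settle the direction. In the authors' deposited table, which states no direction, 309 of the 309 entries whose accession has 1 probe carry the opposite sign to the ratio of labelled mutant over labelled wild type. None of the 10 endothelial genes is in that table. Hdac2, a deleted gene, stood at log2 ratios of 0.60, 0.60, 0.74 and -0.61 in replicates 1 to 4 (mean 0.33 ± 0.63, SD, n = 4, limma adjusted p = 0.76), so it does not bear the labels out. Whole kidneys also hold Hdac2 from outside the bud, and whether the probe lies in the deleted part was not examined. Hdac1 is not analysed here. If the labels were exchanged, every sign below would turn. Between 79.2% and 97.1% of the spots of an array were well above background in a channel, the lowest values falling in replicate 2. Across genes the replicate 2 ratios were also the widest, with an SD of 0.71 among dim probes (mean log2 signal under 10) against 0.23, 0.31 and 0.26 in replicates 1, 3 and 4.

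No endothelial gene differed past the threshold between the RNAs labelled mutant and wild type. Of the 10 members, 0 passed limma's adjusted p of 0.05, where 0.00962% of all genes did (2 above 0 and 1 below). At an unadjusted p under 0.05 there was 1 member, Tek, against 5.75% of all genes. The mean ratio was above 0 for 8 members and below 0 for 2, and the median of the 10 means was 0.06 on the log2 scale, beside 0.01 over all genes. Tek was the 1 member with a single sign in 4 of 4 replicates, as 16.3% of all genes had. No member was below 0 in 4 of 4 replicates (5.54% of all genes) or on 8 of 8 arrays (1.1% of all genes). The means ran from -0.18 for Kdr to 0.50 for Tek. The RNA levels of the 2 labelled genotypes overlapped for 10 of 10 members, while 2.19% of all genes had groups of 4 RNAs that did not overlap. Every spot of the probes used was well above background in both channels on all 8 arrays, and none was saturated, which shows that the genes were detected and not which cells they came from.

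**Figure D1:**
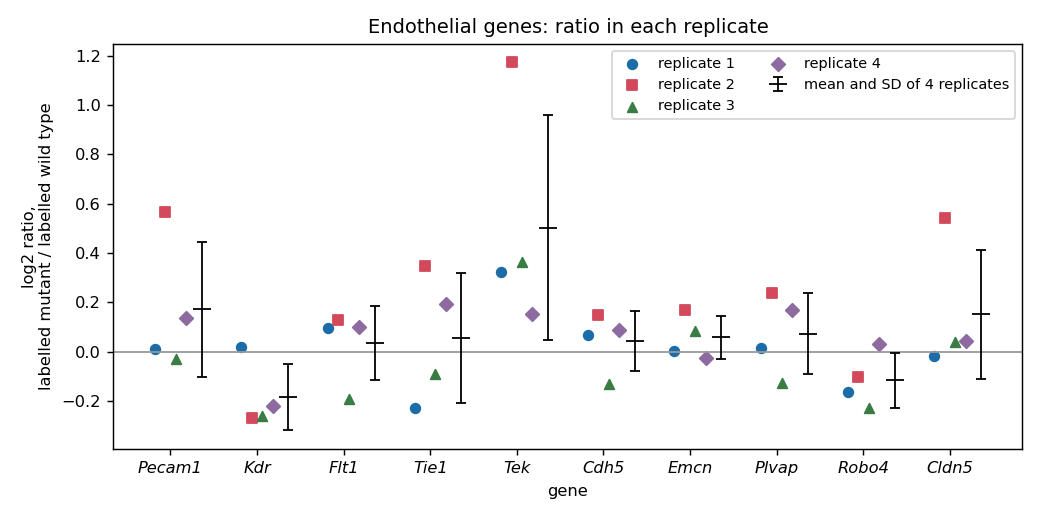
Log2 ratio of labelled mutant over labelled wild type (vertical axis) for each of the 10 endothelial genes, with a point for each of 4 replicates (mean of its 2 arrays) and the mean with its SD. Tek has all 4 points above 0 and Kdr has 3 of 4 below it, and replicate 2 gives the highest point for 8 of the 10 genes.

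Neither VEGF receptor passed the threshold. The log2 ratio of Kdr, the main signalling receptor for VEGF-A, was 0.02, -0.27, -0.26 and -0.22 in replicates 1 to 4. Replicates 2, 3 and 4 thus lay close together below 0 and replicate 1 lay near 0. The mean was -0.18 ± 0.14 (SD, n = 4), which is 1.14-fold lower in the RNA labelled mutant. Its 95% interval was -0.42 to 0.05 in limma (adjusted p = 0.76, exact sign-flip permutation p = 0.25). With 4 replicates the exact test cannot give a p under 0.125. Flt1, the decoy-like receptor, stood at 0.10, 0.13, -0.19 and 0.10, so that only replicate 3 was below 0. Its mean was 0.03 ± 0.15 (SD, n = 4, interval -0.21 to 0.28, limma adjusted p = 0.893). A second and dimmer Flt1 probe had a mean of 0.16 ± 0.25.

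Kdr and Pecam1 were each printed 10 times on every array, which shows the error of a single spot. For Kdr the SD among the spots of an array was between 0.06 and 0.40, with a median of 0.14. Spots flagged as outliers by the scanner software were left out of these SDs. The SD between the 4 replicate ratios was also 0.14, but each of these averages the spots of 2 arrays, so the values are not measures of the same error. The widest array was that of replicate 2 with the labelled mutant in Cy5, where Kdr spots ran from -1.03 to 0.23. In replicate 3 all 20 spots over both arrays were below 0. For Pecam1 the median spot SD, also without flagged spots, was 0.07 and the SD between replicate ratios 0.27. Its 10 spots were all above 0 in replicate 2 with the labelled mutant in Cy3 (0.37 to 0.56) and all below 0 in replicate 3 with the labelled mutant in Cy5 (-0.43 to -0.03). Over the 8 arrays the array ratios had an SD of 0.30 for Pecam1 and of 0.14 for Kdr.

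**Figure D2:**
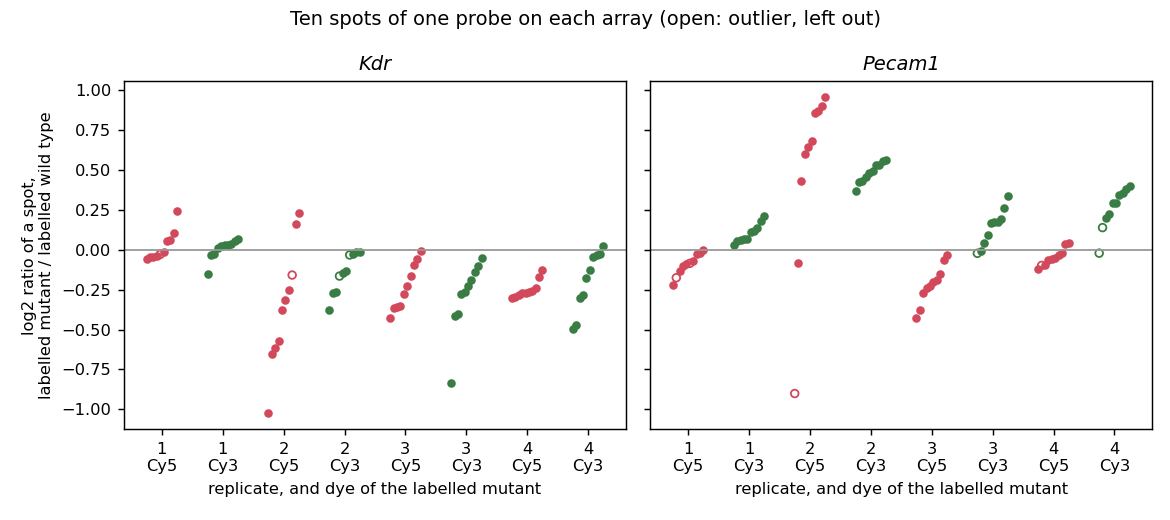
Log2 ratio of labelled mutant over labelled wild type for each of 10 spots of the Kdr and Pecam1 probes on the 8 arrays, with the dye of the labelled mutant below each column. Filled points entered the array mean and open points were flagged as outliers by the scanner software. The Kdr spots of replicates 3 and 4 lie mostly below 0, and the Pecam1 spots shift between the orientations of a replicate.

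The angiopoietin receptor Tek had the highest mean of the set. Its log2 ratio was 0.32, 1.17, 0.36 and 0.15 in replicates 1 to 4, above 0 in every replicate and on 8 of 8 arrays, where 3.35% of all genes had a single sign on 8 arrays. The mean was 0.50 ± 0.46 (SD, n = 4), 1.42-fold higher in the RNA labelled mutant, with an interval of 0.05 to 0.95, an unadjusted limma p of 0.0344 and an adjusted p of 0.76. The exact sign-flip permutation p was 0.125, the smallest that 4 replicates allow. Among all genes the mean lay at percentile 99.1. Replicate 2 carried much of it: without that replicate the mean was 0.28 (limma adjusted p = 0.465), and from normexp-corrected signals with loess it was 0.25. In level, the log2 signal of Tek was 9.08, 9.37, 9.67 and 9.52 in the RNAs labelled mutant and 8.76, 8.20, 9.30 and 9.37 in those labelled wild type. The low wild type RNA of replicate 2 stood apart, and the groups overlapped.

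Tie1 lay near 0. Its log2 ratio was -0.23, 0.35, -0.09 and 0.19, with 2 replicates on each side of 0. The mean was 0.05 ± 0.26 (SD, n = 4, interval -0.25 to 0.36, limma adjusted p = 0.863), and without replicate 2 it was -0.04. The means of both receptors came from dim probes, with log2 signals of 8.20 to 9.67 for Tek and 8.83 to 9.71 for Tie1.

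The genes of endothelial adhesion and junctions did not pass either. Pecam1, the adhesion molecule also carried by platelets and leukocytes, stood at 0.01, 0.57, -0.03 and 0.14, with a mean of 0.17 ± 0.27 (SD, n = 4, limma adjusted p = 0.76). Cldn5, the claudin of endothelial tight junctions, stood at -0.02, 0.54, 0.04 and 0.04, with a mean of 0.15 ± 0.26 (limma adjusted p = 0.76). In both genes replicate 2 was far above the other replicates. Without it the means were 0.04 for Pecam1 and 0.02 for Cldn5. Cdh5, the cadherin that holds endothelial cells together, stood at 0.07, 0.15, -0.13 and 0.09, a narrow range around 0 with a mean of 0.04 ± 0.12 (limma adjusted p = 0.855). A dimmer Cdh5 probe gave 0.24, 0.76, 0.23 and -0.06, with a mean of 0.29 ± 0.34. The probes of Cdh5 thus disagreed most in replicate 2.

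The surface genes lay near 0 as well. Emcn, the sialomucin endomucin, stood at 0.00, 0.17, 0.08 and -0.02, with a mean of 0.06 ± 0.09 (SD, n = 4, interval -0.16 to 0.28, limma adjusted p = 0.799), the smallest SD of the 10. Plvap, a protein of the diaphragms of fenestrated capillaries, stood at 0.01, 0.24, -0.13 and 0.17, with a mean of 0.07 ± 0.16 (limma adjusted p = 0.782). Robo4, the roundabout receptor of endothelium, stood at -0.16, -0.10, -0.23 and 0.03, with 3 of 4 replicates below 0. Its mean was -0.12 ± 0.11 (interval -0.34 to 0.11, limma adjusted p = 0.76). With normexp and loess Robo4 was at -0.26. Robo4 and Kdr were the members with negative means.

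**Figure D3:**
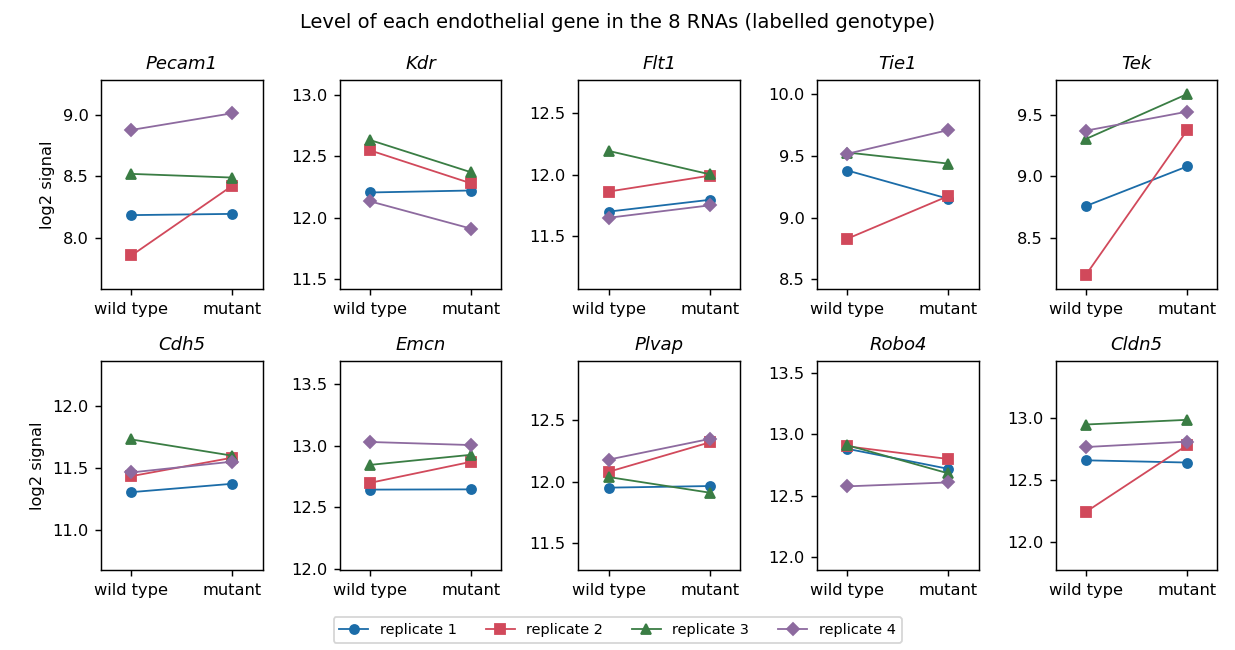
Log2 signal of each endothelial gene (vertical axis, of the same span in every panel) in the RNA labelled wild type and labelled mutant, with a line joining the RNAs of a replicate. Lines run almost level for Emcn and Cdh5, and the steepest line is that of replicate 2 for Tek, from 8.20 to 9.37.

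Levels varied between replicates of a labelled genotype. The log2 signal of Pecam1 ran from 7.86 to 9.01 over the 8 RNAs, while its group means were 8.53 ± 0.35 (labelled mutant, SD, n = 4) and 8.36 ± 0.44 (labelled wild type). Kdr ran from 11.91 to 12.63, with means of 12.19 ± 0.20 and 12.38 ± 0.25. The span over all 8 RNAs was 1.47 for Tek, the widest, and 0.33 for Robo4, the narrowest. The wild type RNA of replicate 2 was the lowest of the 8 for Pecam1, Tie1, Tek and Cldn5. It was not low for Kdr, at 12.55, or Robo4, at 12.90.

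The ratios were also read by the dye that carried the RNA labelled mutant. That the members' median differed between the orientations was already known from these data when the set was defined. With the labelled mutant in Cy5 the median of the 10 genes was -0.02, with 5 above 0, and with it in Cy3 the median was 0.19, with 8 above 0. Over all genes the medians were 0.03 and -0.01. In the scanner ratios Tie1 differed most, at -0.20 ± 0.26 (SD, n = 4 arrays) in Cy5 and 0.31 ± 0.32 in Cy3, and the Cy5 value was the lower in 4 of 4 replicates. Its orientation difference of -0.52 ± 0.25 had an unadjusted limma p of 0.00778 and an adjusted p of 0.149, and was -0.11 with normexp and loess (adjusted p = 0.657). Robo4 was also lower in Cy5 in 4 of 4 replicates, at -0.25 ± 0.09 against 0.02 ± 0.18, and so was Cldn5, at 0.01 ± 0.29 against 0.29 ± 0.23. Cdh5 ran the other way, at 0.17 ± 0.16 against -0.08 ± 0.14, in 4 of 4 replicates. Over all genes, 12.8% were lower in Cy5 in every replicate and 20.7% were higher.

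None of these orientation differences passed. Of the 10 members 0 passed limma's adjusted threshold for the orientation difference, as did 0% of all genes. At an unadjusted p under 0.05 there were 2 members, Tie1 and Cldn5, against 21.7% of all genes. Averaging the arrays of a replicate cancels a dye effect in the replicate ratio only where it is equally large on both arrays. The ratios of the 2 arrays correlated at r of 0.27, 0.59, 0.22 and 0.41 in replicates 1 to 4. Arrays of 1 orientation, from different replicates, correlated at r of -0.23 to 0.58. With normexp and loess the orientation medians were -0.09 and 0.17. The difference of Cdh5 was 0.25 in the scanner ratios and -0.45 with normexp and loess. That of Robo4 was -0.27 in the scanner ratios and 0.32 with normexp and loess, so both turned sign. With normexp and loess the widest difference was that of Cldn5, at -0.69, followed by Flt1 at -0.49 and Cdh5 at -0.45. The difference of Emcn was -0.0098 in the scanner ratios and -0.41 with normexp and loess. Kdr stood at -0.21 ± 0.17 in Cy5 and -0.16 ± 0.12 in Cy3, and Tek at 0.54 ± 0.71 and 0.47 ± 0.20, each with the same sign in both orientations.

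**Figure D4:**
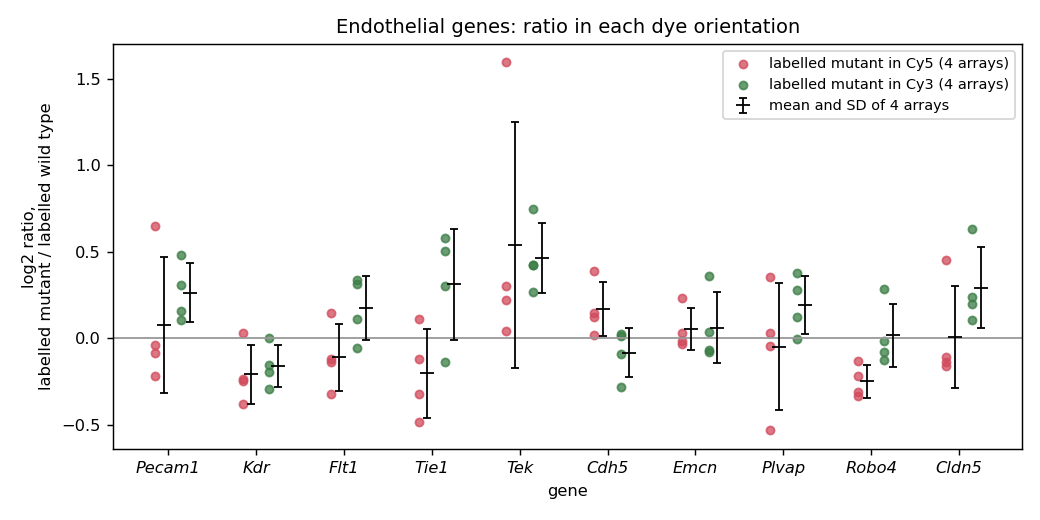
Log2 ratio of labelled mutant over labelled wild type (vertical axis) where Cy5 carried the labelled mutant (4 arrays) and where Cy3 did (4 arrays), with the mean and SD of each. For Tie1, Flt1, Cldn5, Robo4, Plvap and Pecam1 the Cy3 mean is the higher, and for Cdh5 and, by less, Tek the Cy5 mean. In these scanner ratios Kdr and Emcn have nearly equal means.

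Slides divided the replicates into pairs, 1 and 2 on the first and 3 and 4 on the other. The members' median was 0.11 within slide 1 and 0.02 within slide 2, beside 0.02 and 0.04 over all genes. Tek stood at 0.75 within slide 1 and 0.26 within slide 2, and Kdr at -0.13 and -0.24. Flt1 stood at 0.11 and -0.04, and Cdh5 at 0.11 and -0.02. The slide difference passed limma's adjusted threshold for 0 of 10 members and 0% of all genes. At an unadjusted p under 0.05 it held for 0 members and 2.84% of all genes.

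Beyond the 10 members, 31 of 32 other listed endothelial genes were measured and none passed. Of these, 17 stood above 0 and 14 below, with a median of 0.04. Gata2, a transcription factor of endothelial and blood progenitors, stood highest at 0.41 ± 0.13 (SD, n = 4), above 0 in 4 of 4 replicates, with an unadjusted limma p of 0.00557 and an adjusted p of 0.569. The other Gata2 probe had a mean of 0.19. Lmo2, a partner of GATA factors, stood at 0.24 ± 0.25 (limma adjusted p = 0.76). Among the coreceptors and other vascular receptors 7 of 10 were above 0 and none passed. Bmpr2, a receptor for bone morphogenetic proteins, stood at -0.44 ± 0.27 (limma adjusted p = 0.711). Efnb2, the ephrin of arterial endothelium, stood at 0.34 ± 0.18 (limma adjusted p = 0.735), with probes from -0.03 to 0.34. The lymphatic list had 2 of 4 genes above 0, with its master regulator Prox1 at 0.15 ± 0.13 and Lyve1 at 0.06 ± 0.16, and probes of both genes lay on either side of 0.

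The ligands of these receptors were measured too, and none of the 8 passed. Angpt2, the context-dependent ligand of Tek, stood at 0.18, 0.55, 0.52 and 0.48, all above 0. Its mean was 0.43 ± 0.17 (SD), with an unadjusted limma p of 0.00614 and an adjusted p of 0.586. Angpt2 and Tek were thus both above 0 in 4 of 4 replicates, where 10.8% of all genes were. Angpt1, the activating ligand, stood at 0.88, -0.17, 0.57 and -0.09, so that replicates disagreed in sign, with a mean of 0.30 ± 0.51. Vegfa, the main ligand of Kdr, stood at 0.22, -0.21, -0.31 and -0.40, with a mean of -0.17 ± 0.27 (limma adjusted p = 0.76). Like Kdr it was below 0 in replicates 2, 3 and 4, while in replicate 1 Kdr lay near 0, at 0.02. The share of all genes with such signs was not counted. The means of the 4 Vegfa probes ran from -0.27 to -0.11. Vegfc, a ligand of the lymphatic receptor Flt4, stood at 0.23 ± 0.22. Vegfb stood at -0.01 ± 0.13, Vegfd at -0.11 ± 0.29, Pgf at -0.07 ± 0.35 and Angpt4 at -0.30 ± 0.52. Hypoxia genes, a class that includes inducers of Vegfa, had 6 of 10 above 0 (median 0.06), with Hif1a at 0.32 ± 0.46 and the glucose transporter Slc2a1 at 0.13 ± 0.15, and none passed.

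Lists of the neighbouring cells gave the setting in which the endothelial genes were read. Mural cell genes had 8 of 13 above 0 and a median of 0.02, with the pericyte receptor Pdgfrb at -0.29 ± 0.31 (SD, n = 4) and the smooth muscle gene Cnn1 at 0.16 ± 0.20. Macrophage and leukocyte genes had 11 of 15 below 0 and a median of -0.24. At an unadjusted limma p under 0.05 there were 5 below 0, where 813 of all 31183 genes were, led by Cx3cr1 at -0.49 ± 0.20 (its other probe at -0.19) and C1qa at -0.37 ± 0.14. There was 1 above 0 at that p, where 980 of all genes were: Ptprc, the general leukocyte marker, at 0.53 ± 0.40. Probes of Ptprc disagreed in sign, from -0.67 to 0.53. The median of that list was -0.21 within slide 1 and -0.22 within slide 2. Pecam1, which leukocytes also carry, stood above 0, and the part of leukocytes in its ratio was not tested. Platelet genes had a median of 0.01 (Treml1 at 0.13 ± 0.12, Itga2b at 0.14 ± 0.28), and erythroid genes -0.11 (Hbb-bh1 at -0.20 ± 0.31, Gata1 at -0.36 ± 0.82). Podocyte genes had 2 of 6 above 0 and a median of -0.19. Wt1 stood at -0.29 ± 0.11. The podocyte genes above 0 were Podxl and Nphs1, named after their values were seen, at 0.26 ± 0.27 and 0.15 ± 0.26. Both were highest in replicate 2, at 0.63 and 0.53, and probes of Podxl ran from -0.20 to 0.26. Stromal genes had 3 of 10 above 0 and a median of -0.12. Among them Col1a1 stood at -0.29 ± 0.10, with probes from -0.29 to 0.10, and Meis1 at -0.28 ± 0.13, with probes from -0.93 to -0.28. No gene of these lists passed.

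The list of kidney lineage genes, of nephron progenitors, stroma and bud epithelium, had 5 of 13 above 0 and 8 below, with a median of -0.035, and none passed. At an unadjusted limma p under 0.05 there were 4 above 0, where 980 of all 31183 genes were, led by the keratin Krt8 at 0.96 ± 0.13 (SD, n = 4, adjusted p = 0.106) and Calb1 at 0.78 ± 0.20 (adjusted p = 0.192). The others at that p were Wnt11 at 0.42 ± 0.20 and Cdh1 at 0.37 ± 0.05. Ret and Pax2 of the same list stood at -0.05 ± 0.28 and -0.03 ± 0.17. Wnt11, Cdh1, Ret and Pax2 were named after their values were seen. Tek, at 0.50 ± 0.46, had a lower mean and a wider spread than Krt8 and Calb1. The intervals of the endothelial means bound what 4 replicates could show: that of Cdh5 ran from -0.19 to 0.28, of Plvap from -0.18 to 0.32 and of Cldn5 from -0.16 to 0.46.

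**Figure D5:**
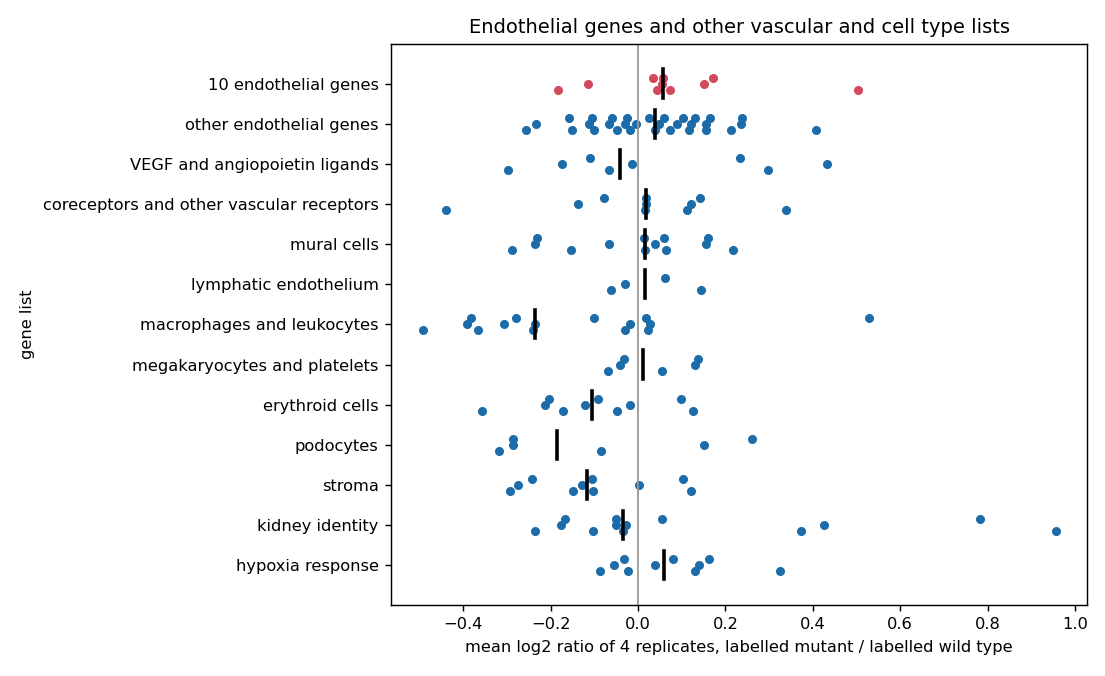
Mean log2 ratio over 4 replicates (horizontal axis) of each gene in the 10-gene endothelial set and in the other lists, with a bar at the median of each list. The endothelial sets centre near 0 with Tek and Gata2 at their upper ends, the macrophage list lies mostly below 0, and Krt8 and Calb1 are the rightmost points.

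The levels of the members over the 8 RNAs were compared with each other. With each slide centred at 0, the level of a member correlated with the mean of the other 9 at r between -0.32 (Kdr) and 0.74 (Cldn5), with a median of 0.28. These points are 8 RNAs of which partners share arrays, and the values describe them with no test. The mean of all 10 stood at 0.167 in the mutant RNA of replicate 2 and -0.127 in its wild type RNA. In the other RNAs it lay between -0.057 and 0.052. Replicate 2, which had the widest ratios, thus weighs most in any correlation with this mean. Other endothelial genes had a median r of 0.24 with the mean of the 10, against 0.15 over the 14906 named genes ranked, and 2 of the 29 ranked (Egfl7 and Gata2) were in the top 10%. The 8 non-members most like the mean were Olfr129, Aadacl2fm1, Rnf216, Spata19, Ube2cbp, Slc12a2, Wipf2 and Atp6v1e2, at r of 0.97 to 0.98. None of these is on the endothelial lists.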

How the data were processed

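Per the file headers, the authors scanned 2-colour Agilent mouse arrays and read them with Feature Extraction 10.5.1.1. Each deposited log ratio stands on the log10 scale, Cy5 divided by Cy3, from signals that this software had background-subtracted and dye-normalized. The deposited intensity columns hold processed, spot and local background signals, and the deposited flags (other) mark spots with 0 or 1. The authors' deposited table gives log2 ratios with no stated direction. Per the labels, 0.5 µg of RNA was labelled per sample.

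Log ratios were put on the log2 scale, turned to labelled mutant over labelled wild type, averaged over spots of a probe without outlier spots, and averaged over the 2 arrays of a replicate. Of 41174 probes, 39520 were used, those that were clear of background in either channel on 4 or more arrays. RefSeq accessions named 25097 probes. The brightest probe stood for its gene. Replicate ratios were tested against 0 with limma 3.58.1 in R 4.3.3 (lmFit, eBayes, Benjamini-Hochberg over 31183 genes, threshold 0.05, all tests two-sided), checked on simulated data. The orientation difference and the slide difference were tested in the same way. Levels were scaled between arrays by quantiles of mean log2 signal. Array number limits the precision, and nothing in the labels shows whether replicates were separate litters. RNAs of a replicate deviated together (r of 0.56 to 0.79 over genes, against -0.46 to 0.26 with other partners), and the ratio keeps this pairing. Those RNAs shared arrays, and the cause of their likeness was not tested. Probe positions were not used, since the array design cites another genome build than the RefSeq tables.

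Members and lists were chosen with earlier results of these data known. Named genes were the 10 members, all VEGF and angiopoietin ligands, members of a list that passed or else the 2 of smallest p, and the 8 genes most like the members' mean level. A gene that this rule names is not reported here. The alternatives were normexp with loess, median centring, other filters, the mean of probes, a replicate block, array weights, slides, single orientations and leaving out each replicate.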

Additional observations from a re-analysis of the deposited data

Results flagged for a closer look

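In 3 genes a replicate lay far from the others by Dixon's test, which marks about 1 in 20 groups by chance, and the 10 genes and their median were looked at. Kdr stood at a log2 ratio of 0.017 in replicate 1, against -0.27 to -0.22 in the other replicates. Flt1 stood at -0.19 in replicate 3, against 0.10 to 0.13. Cldn5 stood at 0.54 in replicate 2, against -0.02 to 0.04. Each of these genes had its outlying value in a different replicate.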

How the results depend on the processing

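No member passed under any of the 17 alternatives, and the lowest adjusted p was 0.172, for Tek with array weights. Pecam1, Tek, Emcn and Cldn5 stood above 0 under all of them. The members' median, 0.06, ran from -0.03 with array weights to 0.19 with the labelled mutant in Cy3 alone. Normexp with median centring and no loess was chosen after seeing the data. Signs turned for Flt1 (-0.062), Tie1 (-0.019) and Plvap (-0.11) with normexp and loess. With array weights, signs turned for Flt1 (-0.060), Tie1 (-0.045), Cdh5 (-0.036) and Plvap (-0.025). These weights ran from 0.18 for replicate 2 to 3.39 for replicate 3. With replicate 2 merely left out, Flt1 (0.0022), Cdh5 (0.0082) and Plvap (0.018) stayed above 0. Within slide 2, signs turned for Flt1 (-0.045) and Cdh5 (-0.022). With the labelled mutant in Cy5 alone, signs turned for Flt1 (-0.11), Tie1 (-0.20) and Plvap (-0.047). With the labelled mutant in Cy3 alone, signs turned for Cdh5 (-0.083) and Robo4 (0.017). Kdr (0.085) and Robo4 (0.044) turned with normexp and median centring. With each replicate left out Tie1 ran from -0.042 (without replicate 2) to 0.15. The causes were not tested.

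The count of all genes that passed, 2 above and 1 below 0, was 0 and 0 with normexp and loess, without a filter and within slide 1, 1 above with median centring, 10 above with the strict filter, 4 above with the mean of probes, 0 above with slide as a term or with the labelled mutant in Cy5 alone, 17 and 5 with it in Cy3 alone, 144 and 86 with array weights, 157 and 559 within slide 2, and 6 above with normexp and median centring. With the replicate block on all 8 arrays it was 80 and 27, and with each replicate left out it ran from 0 to 10 above and from 0 to 1 below. The block changed no call of a member.

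Orientation differences passed for 0 genes in the scanner ratios and for 18 with normexp and median centring, none a member. Those that turned sign were Tek (-0.037), Cdh5 (-0.45), Plvap (0.20) and Robo4 (0.32) with normexp and loess, and Tek (-0.084), Cdh5 (-0.55), Plvap (0.075) and Robo4 (0.21) with normexp and median centring. With each replicate left out, that of Kdr ran from -0.085 to 0.0085, of Tek from -0.18 to 0.17 and of Emcn from -0.11 to 0.11. The SD of ratios across genes was 0.71 in replicate 2 for probes under a mean log2 signal of 10 and 0.39 for those over 12, and in replicates 1, 3 and 4 it was 0.23, 0.31 and 0.26 against 0.20, 0.20 and 0.24. Emcn's orientation difference was -0.54 with normexp and median centring.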
